A study of Mus musculus with 6 samples.

Results

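The mucins and mucus layer proteins described here are 10 genes of the 17526 in the count table, chosen by symbol: Muc2, Muc1, Muc3, Muc4, Muc13, Fcgbp, Zg16, Clca1, Tff3 and Agr2. All 10 were in the table, and their gene IDs matched RefSeq. They were measured by mRNA sequencing in crypts of the mouse small intestine, where stem cells, dividing progenitors and secretory cells sit. The 3 floxed control libraries came from Fpr2f/f mice, which carry loxP-flanked Fpr2 alleles; a genotype label calls these same libraries WT. The 3 knockout libraries came from Fpr2VKO mice, labelled as an intestinal epithelial knockout of Fpr2. The product of Fpr2 is formyl peptide receptor 2, which senses formylated peptides of bacteria and mitochondria. The Cre line, the age and sex of the mice, and whether each library was a separate mouse are not stated in the labels, so each p-value sets the difference against a spread among libraries that could be technical. Fpr2 was not analysed here, so the genotype was not checked on the targeted gene.

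Mucus of the gut is a gel of large, heavily O-glycosylated proteins. Goblet cells make the gel-forming mucin Muc2, pack it into granules with Fcgbp, Clca1, Zg16 and Tff3, and release it into the lumen, while Agr2 works inside the endoplasmic reticulum, where Muc2 is folded. Muc1, Muc3, Muc4 and Muc13 are anchored in the apical membrane and form part of the glycocalyx, and Muc3 and Muc13 are typical of absorptive cells. The members are therefore described below as 6 secreted mucus genes, with Agr2 counted among them, and 4 membrane mucins.

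Positions are those of RefSeq on GRCm38.p6, the assembly that the submitters' build mm10 carries. Muc2 lies at chr7:141690340-141754691, Fcgbp at chr7:28071236-28120864 and Zg16 at chr7:127050156-127052675. Clca1 (chr3:145004537-145032776) carries gene ID 23844, which RefSeq also lists under the older name gob-5, so it is the goblet cell CLCA gene and not Clca3a1, which once bore the symbol Clca1. Tff3 lies at chr17:31125306-31129611 and Agr2 at chr12:35992925-36004081. Of the membrane mucins, Muc1 lies at chr3:89229056-89233381, Muc3 at chr5:137134924-137166048, Muc4 at chr16:32735886-32782391 and Muc13 at chr16:33794037-33819929.

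RefSeq promoter entries were found for 7 of the 10 members. Those for Zg16, Clca1 and Tff3 were not found. The 250 bases before the start site are shown for the 3 secreted genes with an entry and for Muc3, the membrane mucin whose value lay farthest from 0, so that both classes can be read side by side. Capitals mark every match, on either strand, to TATAA, the core of the TATA box, to CAGCTG, an E box of the kind bound by the secretory lineage factor Atoh1, to TGTTTAC, a core of forkhead factor sites, to AGATAA, a core of sites for zinc finger factors such as Gata4, to TTTATG, a core of sites for homeobox factors such as Cdx2, or to GGGCGG, the box read by SP and KLF factors. No match overlapped another in these windows.
Muc2, chr7:141690090-141690339, plus strand: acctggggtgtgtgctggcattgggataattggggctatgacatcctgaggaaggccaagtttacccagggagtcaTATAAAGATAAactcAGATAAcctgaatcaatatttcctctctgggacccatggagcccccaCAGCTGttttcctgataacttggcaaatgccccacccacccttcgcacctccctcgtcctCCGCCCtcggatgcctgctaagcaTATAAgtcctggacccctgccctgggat
Fcgbp, chr7:28070986-28071235, plus strand: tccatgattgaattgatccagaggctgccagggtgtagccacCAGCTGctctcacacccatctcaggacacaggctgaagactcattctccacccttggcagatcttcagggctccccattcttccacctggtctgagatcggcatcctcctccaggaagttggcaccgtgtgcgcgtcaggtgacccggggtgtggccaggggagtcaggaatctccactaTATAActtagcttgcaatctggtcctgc
Agr2, chr12:35992675-35992924, plus strand: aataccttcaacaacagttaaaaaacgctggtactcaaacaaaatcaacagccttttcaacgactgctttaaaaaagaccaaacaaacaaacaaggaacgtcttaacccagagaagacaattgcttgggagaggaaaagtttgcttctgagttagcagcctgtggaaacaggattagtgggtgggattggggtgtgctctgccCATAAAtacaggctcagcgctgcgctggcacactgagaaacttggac
Muc3, chr5:137166047-137166296, minus strand: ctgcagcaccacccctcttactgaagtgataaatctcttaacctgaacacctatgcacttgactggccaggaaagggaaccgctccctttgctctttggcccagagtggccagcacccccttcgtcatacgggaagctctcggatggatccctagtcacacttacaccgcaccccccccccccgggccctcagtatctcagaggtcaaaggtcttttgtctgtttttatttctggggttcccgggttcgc

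The Muc2 and Fcgbp windows each held TATAA starting 28 bases before the start site and one CAGCTG, at 112 bases before the start in Muc2 and 208 in Fcgbp. Muc2 also held a second TATAA at 174 bases before the start, AGATAA at 169 and 159, and GGGCGG on the opposite strand at 52. Agr2 held only TTTATG on the opposite strand at 47, and the Muc3 window held no match. Windows of the other membrane mucins, not shown, did hold matches. Muc1 had TATAA at 31 and GGGCGG at 91 and 49. Muc4 had TATAA at 36 and, on the opposite strand, at 46. Muc13 had TTTATG on the opposite strand at 180 before start site 1 and no match before start site 2. TATAA near the start was thus found in both classes. Among 32851 RefSeq promoter windows of the same length, 22.8% held TATAA, 13% CAGCTG, 9.99% AGATAA, 10.8% TTTATG, 3.17% TGTTTAC and 32.7% GGGCGG. These matches describe letters in a window and are not binding data.

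Mucin coding sequences are repetitive, and reads were 50 bases long, so the sequence bears on how surely a read can be assigned. In the longest coding transcript of GENCODE vM21, 14.2% of the 50-base stretches of Muc13 and 10.1% of those of Muc4 occurred more than once within the transcript. How reads from repeats were counted is not stated. Stretches shared with another gene were found for 3 members: 8.5% of the distinct stretches of Fcgbp recur in 9530053A07Rik, 5.2% of those of Muc13 in the overlapping antisense gene Gm15657, and 2.24% of those of Muc4 in Muc20, which overlaps it on the opposite strand. Muc1 had 1.28% such repeated stretches and the annotated Muc3 transcript 0%. The most repeated coding stretches of Muc13 and Muc4, each found 6 times in its transcript, and the first stretch that Fcgbp shares are shown.
Muc13: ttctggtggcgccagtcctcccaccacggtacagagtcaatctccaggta
Muc4: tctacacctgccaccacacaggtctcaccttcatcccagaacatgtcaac
Fcgbp: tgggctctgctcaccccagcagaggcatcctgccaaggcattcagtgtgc

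The same 3 members, and none of the other 7, carried estimated counts that were not whole numbers. The partners were low: 9530053A07Rik had between 3.58 and 8.05 estimated counts in a library and Muc20 between 5.57 and 30.62. Gm15657 was not analysed here, and the strand use of the kit is not stated, so antisense reads in the Muc13 and Muc4 values cannot be told apart. The annotated Muc3 transcripts shared no 50-base stretch with another gene, its neighbour Muc3a included, but they are shorter than the RefSeq gene.

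The libraries held 11108511 to 16859902 estimated counts each, and 12943 genes were tested. Values of a group are given below in the order of its replicates 1, 2 and 3. Levels are TMM-scaled CPM, a gene's share of its library's counts after a correction for composition, a log2 change is knockout over floxed control with its standard error (SE), and a gene passed if its adjusted p in edgeR's quasi-likelihood test, over all genes tested, was under 0.05. Epithelial genes such as Epcam and Cdh1 took between 7551 and 10123 CPM as a list of 8 in the 6 libraries, stroma markers at most 4.72 CPM, and markers of stomach and Brunner glands at most 3.87 CPM. Floxed controls 1 and 3 stood apart in lymphocyte transcripts: the 10 T cell and intraepithelial lymphocyte markers in the table summed to 272.8 and 230.7 CPM there, 73.6 CPM in floxed control 2, and 64.4 to 84.7 CPM in the knockouts. Gzma, a granzyme and the most abundant of these markers, stood at 85.4, 25.2 and 68.5 CPM in the controls and at 18.6, 22.7 and 26.4 CPM in the knockouts. Their part in the results below was not tested, and values without those 2 libraries are given, against the single control that is then left.

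The 6 secreted mucus genes had lower means in the knockouts, while the membrane mucins lay near or above the control means, but 0 of the 9 members tested passed. All 6 secreted genes had negative log2 changes, from -0.81 to -0.48 with a median of -0.69, whereas Muc3, Muc13 and Muc4 had 0.29, 0.036 and -0.055 (Muc4 turned to 0.14 when libraries were scaled by their totals). The median over all genes tested was -0.013. In edgeR 2 genes of the whole table passed, or 0.0155%, of which 1 was lower and 1 higher in the knockouts (0.00773% each), and neither was a member. At an unadjusted p under 0.05, with no correction, stood 4 of the 9 members, all secreted and all negative (Tff3, Agr2, Fcgbp and Zg16), against 9.63% of all tested genes in that direction, 4.09% in the other and 13.7% in either. DESeq2 called 0 members, against 2.64% of all genes (2.35% lower and 0.294% higher). The groups did not overlap for 2 of the 9 members, Fcgbp and Tff3, both with every knockout below every control, against 10.3% of all genes tested that way round and 6.99% the other. Of the 9 members 7 had a negative log2 change, against 51.9% of all genes. A difference was thus not established for any member, and the part of variation between libraries was not tested. In bulk crypts, goblet cell number and mucus mRNA per goblet cell cannot be told apart.

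**Figure D1:**
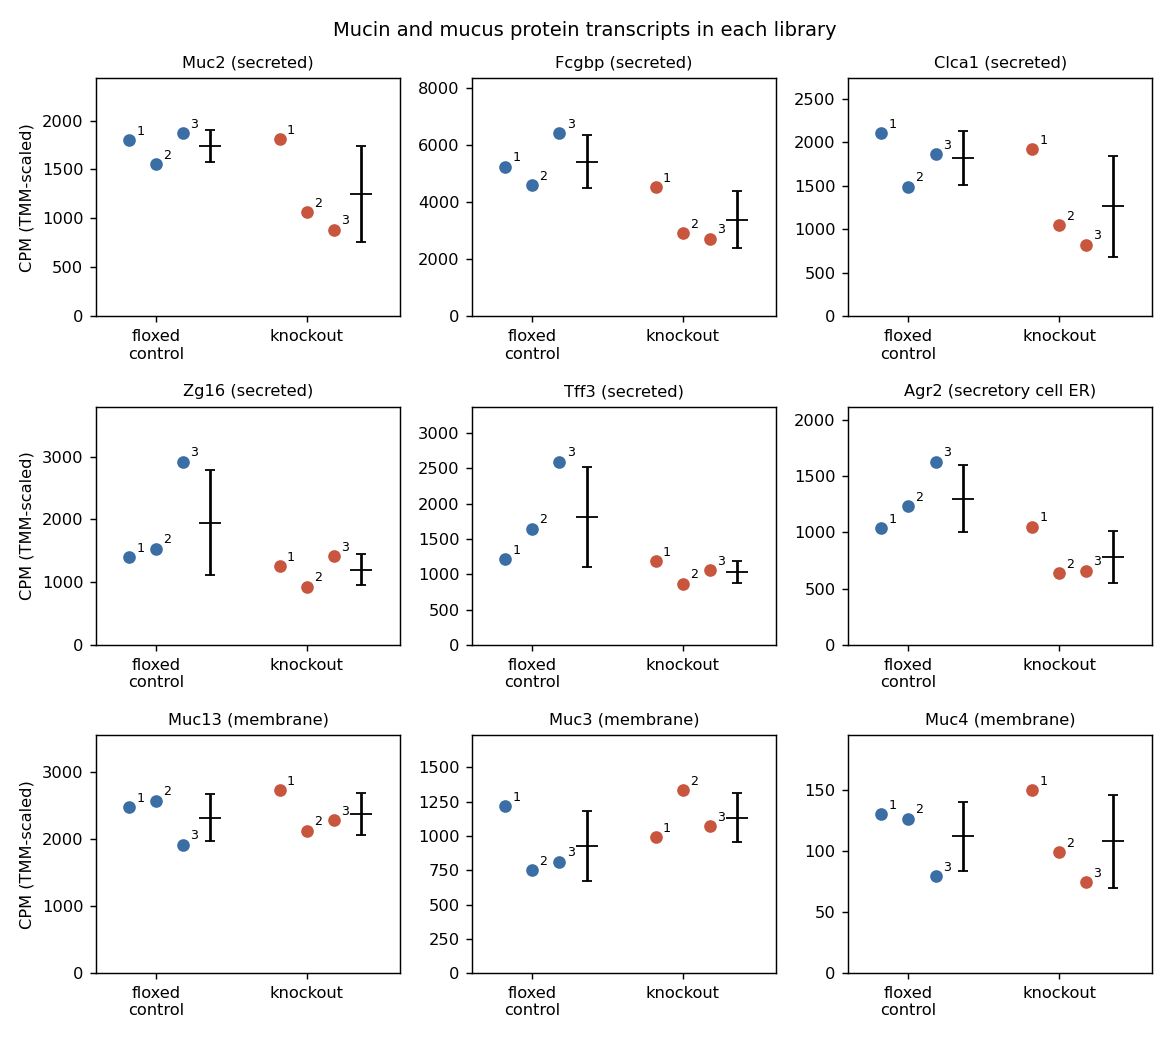
TMM-scaled CPM (y axis, from 0, a separate scale per gene) of the 9 tested members in the 3 floxed control and 3 knockout libraries, with replicate numbers beside the points and bars giving mean ± SD (n = 3). Knockouts 2 and 3 lie below every control for Muc2, Fcgbp, Clca1, Tff3 and Agr2, while knockout 1 lies among or close to the controls.

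Muc2, the gel-forming mucin that makes up the scaffold of intestinal mucus, stood at 1799, 1553 and 1869 CPM in the controls against 1807, 1062 and 887 CPM in the knockouts. The groups overlapped, because knockout 1 was level with the controls while knockouts 2 and 3 lay below all of them. Means were 1740 ± 166 and 1252 ± 488 CPM (SD, n = 3), a log2 change of -0.48 ± 0.28 (adjusted p = 0.494). Without knockout 1 the log2 change of Muc2 was -0.83, and without knockout 3 it was -0.27.

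Clca1, a secreted metalloprotease of goblet cell granules that acts on the mucus gel, had the same library order at the low end. The controls held 2105, 1493 and 1868 CPM of Clca1, and the knockouts 1923, 1050 and 826 CPM. Knockout 1 again lay within the range of the controls and the other 2 knockouts below it. The log2 change of Clca1 was -0.52 ± 0.32 (adjusted p = 0.502), and it was -0.95 without knockout 1 and -0.29 without knockout 3.

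Fcgbp, a large secreted mucus protein built of repeated von Willebrand D domains, had the highest counts of the members. The controls held 5252, 4594 and 6419 CPM of Fcgbp and the knockouts 4535, 2926 and 2727 CPM. Every knockout lay below every control, although knockout 1 came close to floxed control 2. Means were 5421 ± 924 and 3396 ± 991 CPM, a log2 change of -0.67 ± 0.29 (adjusted p = 0.344).

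Tff3, the intestinal trefoil peptide secreted with the mucus and known for epithelial repair, stood at 1212, 1643 and 2593 CPM in the controls against 1184, 864 and 1055 CPM in the knockouts. The groups did not overlap, but floxed control 1 and knockout 1 differed little, and floxed control 3 was far above the rest. The log2 change of Tff3, -0.81 ± 0.29 (adjusted p = 0.257), was the most negative of the members, and it was -0.43 without floxed control 3.

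Zg16 is a lectin of mucus that binds the wall of Gram-positive bacteria, and floxed control 3 was its highest library too. Its levels were 1399, 1533 and 2917 CPM in the controls against 1254, 929 and 1415 CPM in the knockouts. Knockout 3 lay above floxed control 1, so the groups overlapped. The log2 change of Zg16 was -0.70 ± 0.31 (adjusted p = 0.359), and -0.25 without floxed control 3.

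Agr2, a protein disulfide isomerase of the endoplasmic reticulum needed for Muc2 production, stood at 1038, 1235 and 1627 CPM in the controls. In the knockouts it stood at 1051, 638 and 661 CPM. Knockout 1 and floxed control 1 were level, and knockouts 2 and 3 lay below every control. The log2 change of Agr2 was -0.73 ± 0.27 (adjusted p = 0.266), and ranged from -1.0 to -0.50 when single libraries were left out.

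Muc13, the membrane mucin with the highest CPM here, stood at 2477, 2572 and 1921 CPM in the controls against 2730, 2130 and 2286 CPM in the knockouts. The groups overlapped throughout. The means, 2323 ± 352 and 2382 ± 311 CPM, gave a log2 change of 0.036 ± 0.24 (adjusted p = 0.969). The sign of Muc13 turned when floxed control 3 or knockout 1 was left out, and that of Muc4 when any of 4 single libraries was.

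Muc3, a membrane mucin of the enterocyte brush border, was the only tested member with a log2 change above 0.1. Levels of Muc3 were 1216, 750 and 813 CPM in the controls against 993, 1333 and 1073 CPM in the knockouts. Floxed control 1 lay above knockouts 1 and 3, so the groups overlapped. The log2 change of Muc3 was 0.29 ± 0.25 (adjusted p = 0.659), 0.57 without floxed control 1 and 0.16 without knockout 2.

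Muc4, a large membrane mucin whose EGF-like domains can engage ErbB receptors, was far less abundant, at 130.2, 126.5 and 79.5 CPM in the controls against 149.7, 99.3 and 74.8 CPM in the knockouts. Both groups spanned nearly the same range. Its log2 change was -0.055 ± 0.27 (adjusted p = 0.955). Muc1, the membrane mucin of many glandular epithelia, had 3, 2 and 2 counts in the controls and 5, 2 and 4 in the knockouts. It did not pass the filter on low counts. With no filter beyond 1 count its log2 change was 0.10 ± 0.79 (edgeR adjusted p = 0.968), and no difference of Muc1 was detectable at this depth.

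**Figure D2:**
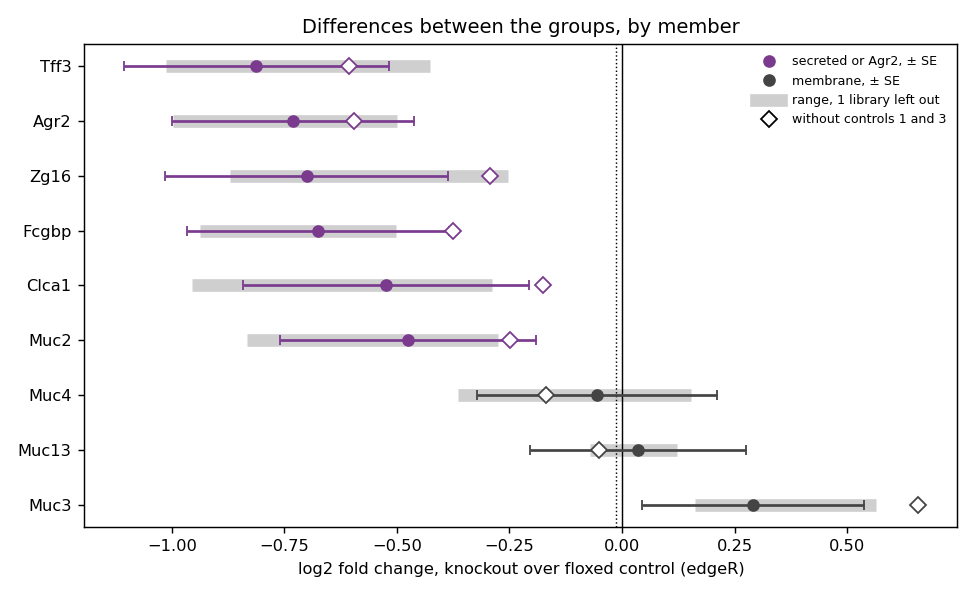
Log2 fold change of each tested member, knockout over floxed control (x axis), as points with SE bars, with grey bands for the range when 1 library was left out and open diamonds for the value without floxed controls 1 and 3; the dotted line is the median of all genes tested. The 6 secreted genes lie between -0.81 and -0.48 and the membrane mucins between -0.055 and 0.29.

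Values of the secreted genes depended on which libraries entered. Without floxed controls 1 and 3 their median was -0.33, with Tff3 at -0.61 ± 0.26, Agr2 at -0.60 ± 0.29 and Clca1 at -0.18 ± 0.48 (SE). Muc3 was then at 0.66 ± 0.27. Without floxed control 2 and knockout 1, in contrast, the secreted median was -1.01, and Clca1 had its smallest adjusted p of any setting (0.0541, log2 -1.08 ± 0.28). These libraries had been set apart by earlier work on these data. They are the lowest control and the highest knockout for Muc2, Fcgbp and Clca1. Leaving them out therefore widens those differences by construction. No setting tried brought a member under the threshold. Without floxed control 2 alone, 955 genes of the table passed and no member did.

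The 6 secreted genes together took 1.32%, 1.10% and 1.45% of all estimated counts of the controls and 1.24%, 0.842% and 0.804% of those of the knockouts. Knockout 1 lay between the controls. The 4 membrane mucins together took 0.394%, 0.315% and 0.237% in the controls and 0.407%, 0.401% and 0.365% in the knockouts. Their ratio does not depend on library scaling: secreted over membrane CPM was 3.35, 3.49 and 6.15 in the controls and 3.03, 2.10 and 2.20 in the knockouts. Each knockout ratio was below each control ratio, with floxed control 1 and knockout 1 the nearest pair. The ratio was formed after the values of its genes were known and is given without a test.

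Within the secreted genes, Muc2, Clca1 and Fcgbp kept close proportions, while the ratios of Tff3 and Zg16 to Muc2 varied more. The Clca1 to Muc2 CPM ratio stayed between 0.931 and 1.17 over the 6 libraries, although Muc2 itself varied 2.11-fold. For Fcgbp to Muc2 the range was 2.51 to 3.43. Agr2 lay between, with 0.577 to 0.871, a 1.51-fold spread. Zg16 over Muc2 ran from 0.694 to 1.60, and Tff3 over Muc2 from 0.655 to 1.39, a spread of 2.30-fold and 2.12-fold. Zg16 and Tff3 went together more closely, with a ratio between 0.933 and 1.34. The highest library for Zg16, Tff3, Agr2, Fcgbp and Muc2 was floxed control 3; for Clca1 it was floxed control 1. For the membrane mucins the highest library was knockout 1 (Muc13 and Muc4) or knockout 2 (Muc3), and floxed control 3 was the lowest for Muc13.

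**Figure D3:**
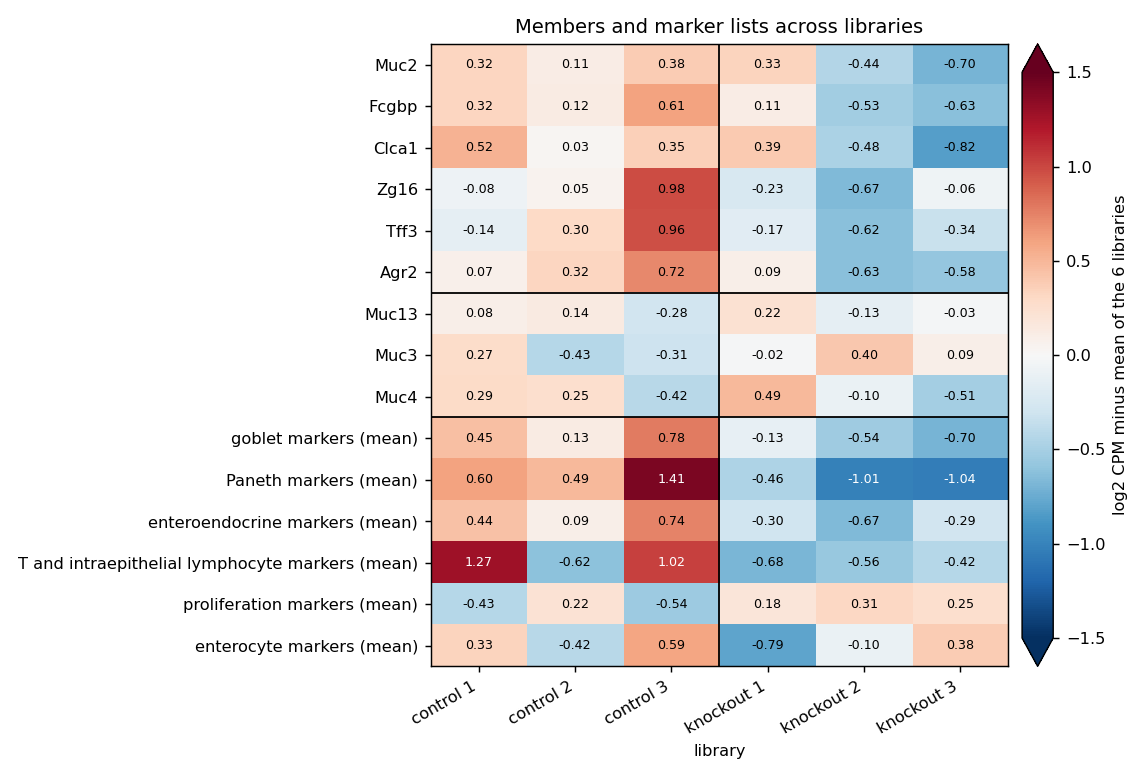
Log2 CPM minus the mean of the 6 libraries (colour and printed value) for the 6 secreted genes, the 3 tested membrane mucins and the mean of 6 marker lists, with libraries in columns. Floxed control 3 reaches 0.98 for Zg16 and 0.96 for Tff3 and also 1.41 for the Paneth markers, while knockouts 2 and 3 are negative for every secreted gene.

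Levels of different genes can be set side by side only per transcript length, here CPM per kb of the longest GENCODE coding transcript. In the floxed controls the order was Tff3 (3684 ± 1433 CPM per kb), Zg16 (2697 ± 1163), Agr2 (1658 ± 383), Muc13 (782 ± 118), Fcgbp (684 ± 117), Clca1 (498 ± 84.4), Muc4 (9.94 ± 2.51) and Muc1 (0.0877 ± 0.0292), each as mean ± SD over 3 libraries. The mean ± SD ranges of neighbours overlapped from Tff3 to Agr2 and from Muc13 to Clca1, and did not at the steps from Agr2 to Muc13, from Clca1 to Muc4 and from Muc4 to Muc1. Within each control library Tff3 stood above Zg16, Zg16 above Agr2 and Fcgbp above Clca1, whereas Fcgbp passed Muc13 in floxed control 3 (810 against 647 CPM per kb) and lay below it in the other 2. So Fcgbp, first by counts, stood behind the small proteins Tff3, Zg16 and Agr2 per length. Muc2 and Muc3 were left out of this order because their coding models are partial: the longest coding model of Muc2 has 2926 bases where its annotated exons cover 7127, and the GENCODE model of Muc3 has its 5' end at 137149322, inside the RefSeq gene. Annotated exons also cover more bases than the model used for genes kept in the order. Examples are Zg16 (1257 against 723), Agr2 (1291 against 784) and Fcgbp (10497 against 7928). The order and its steps, such as that from Agr2 to Muc13, are therefore given only for the length chosen. In the knockouts Tff3 was at 2098 ± 326 CPM per kb, Zg16 at 1659 ± 342 and Muc13 at 802 ± 105.

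Of 12 regulators of the goblet lineage, 11 had negative log2 changes as well, and 0 passed in edgeR. Among the 11, 9 reached an unadjusted p under 0.05 and 7 were called by DESeq2, and the median of all 12 was -0.83. Of all genes tested, 51.9% were negative, 9.63% were negative at that p and DESeq2 called 2.35% lower. This list, like the companion and marker lists below, was set with earlier results of these data known. Its counts are therefore no independent support. Spdef, the transcription factor of goblet cell maturation, stood at 98.1, 94.3 and 125.8 CPM in the controls against 73.0, 51.3 and 43.8 CPM in the knockouts. The groups were apart, as for 10.3% of all genes that way round (log2 -0.92 ± 0.21, adjusted p = 0.126). Foxa3 and Foxa2, forkhead factors of secretory cells, had -1.03 ± 0.21 and -0.84 ± 0.20, and Atoh1, which commits cells to the secretory lineage, had -0.86 ± 0.21. The exception was Hes1, the Notch target that represses Atoh1, at 0.37 ± 0.20 (edgeR adjusted p = 0.449). Hes1 was picked after its values were seen, and its groups overlapped. A link between the Hes1 and Atoh1 values was not tested. Without floxed controls 1 and 3 the median of the list was -0.40 and Hes1 was at 0.021.

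Genes of mucin granule docking and release had a median of -0.46, with 17 of 20 negative, against 51.9% of all genes. At an unadjusted p under 0.05 stood 10, all negative (9.63% of all genes that way). In edgeR 0 passed, and DESeq2 called 4, all negative (2.35%). As for the regulators, these counts are no independent support. Rep15, a Rab15 effector, stood at 32.5, 33.0 and 37.7 CPM in the 3 controls and at 19.7, 13.6 and 18.3 CPM in the 3 knockouts (log2 -1.0 ± 0.19, adjusted p = 0.0894). Groups were apart for Rep15, as for 10.3% of all genes that way round, and its controls hardly varied. Rab3d, a GTPase of secretory granules, had -1.18 ± 0.26, the calcium sensor Syt7 -0.96 ± 0.24 and Myrip, which links granules to myosin, -1.10 ± 0.29. Stxbp2 and Vamp2, of the membrane fusion machinery, had -0.012 ± 0.15 and -0.075 ± 0.17. Without floxed controls 1 and 3 the median of the list was -0.079. Stxbp2 and Vamp2 were picked after their values were seen.

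Further mucins and mucus proteins were split. Of 36 listed genes 31 were in the table and 24 were tested, with 11 negative and 13 positive. The median was 0.027 (0.14 without floxed controls 1 and 3). In edgeR 0 passed, and DESeq2 called 4, all negative, against 2.35% of all genes that way. An unadjusted p under 0.05 was reached by 6 negative and 2 positive genes, against 9.63% and 4.09% of all genes. Those with the smallest p were Itln1, a lectin that binds microbial sugars (log2 -1.77 ± 0.36), the antimicrobial ribonuclease Ang4 (-1.69 ± 0.35), the protease inhibitor Spink4 (-1.19 ± 0.31) and the receptor Kit (-0.95 ± 0.27). Itln1 and Ang4 are also in the Paneth list. Spink4 stood at 1141, 1408 and 2461 CPM in the controls against 926, 573 and 694 CPM in the knockouts, with floxed control 3 highest, as for Tff3 and Zg16. The gastric gel mucin Muc5ac had 0 CPM in 5 of the 6 libraries.

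Goblet markers that are not members were negative in 16 of 16 tested genes, against 51.9% of all genes. Each had an unadjusted p under 0.05 (9.63% of all genes that way), 0 passed in edgeR and DESeq2 called 9 (2.35%). The list was set with earlier results of these data known, so these counts are no independent support. The median of these markers, -0.88, lay beyond that of the secreted members (-0.69). The list shares 3 genes with the regulators, 3 with the granule list and 2 with the further mucus proteins. The chemokine genes Ccl6 and Ccl9 had the most negative values of this list, -1.44 ± 0.29 and -1.28 ± 0.23. Ccl6 stood at 878.8, 842.3 and 1420 CPM in the controls and at 535.5, 325.9 and 293.5 CPM in the knockouts. Knockout 1, level with the controls for Muc2, was thus below each of them for Ccl6. Mmp7, a gene of the Paneth list picked after its values were seen, ran alike. It stood at 992.5, 905.9 and 1502 CPM in the controls and at 570.1, 372.0 and 326.9 CPM in the knockouts. Whether Ccl6 came from goblet or Paneth cells was not tested. Without floxed controls 1 and 3 the median of the goblet marker list was -0.53.

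**Figure D4:**
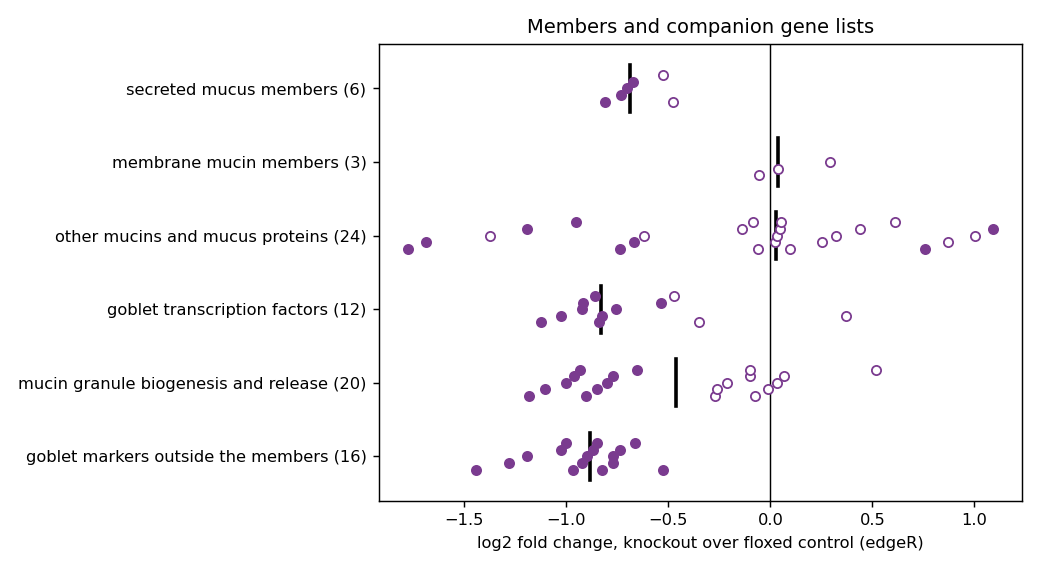
Log2 fold change, knockout over floxed control (x axis), of each tested gene in the 2 member classes and 4 companion lists, with the number tested in brackets; filled points have an unadjusted p under 0.05 and black bars are medians. The secreted members, with a median of -0.69, lie between the granule list (-0.46) and the goblet regulators (-0.83), and no gene plotted passed the adjusted threshold.

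Markers of other cell types also differed between these libraries, and their part in the mucus gene values was not tested. The Paneth list, 11 tested genes, summed to between 70297 and 138909 CPM in the controls and between 23534 and 36626 CPM in the knockouts, with a median log2 change of -1.72, or -1.20 without floxed controls 1 and 3. Enteroendocrine markers summed to 801 to 1403 CPM in the controls and 436 to 596 CPM in the knockouts (median -0.83, and -0.51 without those controls). Tuft cell markers summed to 147 to 288 CPM against 95.0 to 148 CPM, with a median of -1.04, or -0.30 without them. Stem cell markers were negative in 10 of 10 genes, against 51.9% of all genes. Their groups were apart in 8 (10.3% of all genes that way round) and 6 stood at an unadjusted p under 0.05 (9.63%). In edgeR 0 of them passed, and DESeq2 called 2 (2.35%). Their median was -0.39, or -0.20 without the same controls, and their sums were 2028 to 2603 CPM against 1423 to 1939 CPM. For proliferation markers 10 of 10 log2 changes were positive, against 48.1% of all genes. They summed to 813 to 1396 CPM in the controls and 1370 to 1582 CPM in the knockouts. In edgeR 0 of them passed, DESeq2 called 2 (0.294% of all genes that way) and 5 stood at an unadjusted p under 0.05 (4.09%). Without floxed controls 1 and 3 their median went from 0.46 to 0.066 and 5 of the 10 were negative. Enterocyte markers, with sums of 5553 to 11881 CPM in the controls and 4667 to 9236 CPM in the knockouts, overlapped, with a median of -0.26 that turned to 0.38 without those controls. The B and plasma cell list had a median of -1.85 over 6 tested genes and -0.061 without floxed controls 1 and 3. Its sum is nearly all Cd74, which epithelium also expresses (log2 -0.21 ± 0.30), while Cd79a, a B cell receptor subunit picked after its values were seen, stood at 10.04, 0.590 and 8.47 CPM in the controls and at 1.92, 1.07 and 1.57 CPM in the knockouts. No marker of these lists that is in the table was at 0 in every library.

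The genes most like Muc2 over the 6 libraries, by root mean square difference of centred log2 CPM among 12942 others, were Clic4 (0.0727), Boc (0.0746), Extl3 (0.0774), Pdia5 (0.0810) and B3gnt7 (0.0974). Clic4 is a chloride intracellular channel protein, Boc a Hedgehog co-receptor, Extl3 and B3gnt7 glycosyltransferases and Pdia5 a disulfide isomerase. Pdia5 stood at 71.7, 66.4 and 82.6 CPM in the controls and at 68.2, 46.7 and 36.4 CPM in the knockouts, with knockout 1 within the control range, as for Muc2. Of the members, Clca1 ranked 10 and Fcgbp 28 among those 12942 genes, Agr2 ranked 387, and Tff3 and Zg16 ranked 3701 and 5603.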

How the data were processed

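Crypt RNA of 6 libraries was sequenced from mRNA in 50-base single-end reads (DNBSEQ), per the labels' protocols. The mm10 build comes from the submitters' processing notes; for the aligner, the counter and the annotation, the name is not given in the sources used here. Estimated counts (expected counts) per gene are as the authors deposited them, without normalisation, and 31.1% to 35.2% of a library's values were not whole, so they were rounded, where the design had assumed raw counts. Fpr2 was not analysed here.

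The test was edgeR's (version 4.0.16, R 4.3.3) quasi-likelihood test of knockout over floxed control with robust glmQLFit, TMM scaling and the filterByExpr filter by group, which kept 12943 of 17526 genes. Adjusted p-values (Benjamini-Hochberg) run over all of these, and the biological coefficient of variation was 20.3%. Profiles used log2 CPM with a prior count of 2. DESeq2 1.42.0, limma-voom (limma 3.58.1), other scalings and filters, a replicate block and left-out libraries were tried as alternatives. One of them leaves out floxed control 2 and knockout 1, which earlier work on these data had set apart; scaling by library totals was added after the data were seen. Counts were simulated with the means and sizes of these libraries (knockout over floxed control, 12845 genes). Calls came for 9.46% of genes simulated with a change of 1.5-fold, 62.7% at 2-fold, 100% at 4-fold and 3 of 12646 without change. The simulation gave every gene the same variation and drew libraries independently, whereas marker lists here shifted together in single libraries. These shares are therefore not the power in these data. Counts differed between every pair of libraries by more than sampling noise.

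Members, lists and settings were chosen with earlier results of these data known. Named are all members, the 4 genes of each companion list with the smallest p, and the 5 genes most like Muc2. Gzma and Cd74 are named as the most abundant markers of their lists, and Epcam and Cdh1 as examples of theirs. Hes1, Stxbp2, Vamp2, Muc5ac, Muc6, Muc20, Dmbt1, Cd79a, Mmp7 and the CLCA family genes were picked after their values were seen. Promoters are from RefSeq (GRCm38.p6) and transcripts from GENCODE vM21. Figures were drawn with matplotlib 3.10.9 in Python 3.11.15.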

Additional observations from a re-analysis of the deposited data

How the results depend on the processing

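No member passed under any of the 16 alternatives, 1 of them added after the data were seen, while the number of genes called over the whole table, 2 in the reported fit, was 342 by DESeq2, 1 by limma-voom, 0 with DESeq2 size factors in edgeR, 67 with no filter beyond 1 count, 39 with the replicate block, 12 without floxed controls 1 and 3, 920 without floxed control 2 and knockout 1, and 13 with library totals in place of TMM; leaving out single libraries gave 0 to 955. At an unadjusted p under 0.05, edgeR with DESeq2 size factors had 1795 genes. The members' median log2 change, -0.52, was -0.25 without floxed controls 1 and 3 and -0.91 without floxed control 2 and knockout 1, and between -0.83 and -0.29 without a single library. The 6 secreted genes stayed negative under all 16 alternatives, from -1.08 to -0.18. These values are refits of the same 6 libraries or parts of them, not separate observations. Muc13, between -0.071 and 0.12 without single libraries, turned to -0.048 without floxed control 3, -0.071 without knockout 1 and -0.050 without floxed controls 1 and 3. Muc4, between -0.36 and 0.15, turned to 0.097, 0.049, 0.0058 and 0.15 without floxed control 1, floxed control 2, knockout 2 and knockout 3, and to 0.14 with library totals, a scaling that moves the median of all genes from -0.013 to 0.21; the cause was not tested. The secreted genes had -0.56 (Tff3) to -0.26 (Muc2) with library totals. No pairing by replicate number was seen: deviations of same-numbered libraries correlated at -0.18, -0.27 and 0.068, and not every library correlated best with its own number. With 3 libraries per group this check cannot exclude a pairing. The block changed the call of no member. Muc1, at 2 to 5 counts, was tested only with no filter, where its SE of 0.79 limits what can be seen. Fits that leave 1 control assume that it varies like the knockouts.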

Other observations

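Some mucus-associated genes outside the members had higher means in the knockouts, none passing in edgeR. Of the CLCA family, a cluster of related genes whose estimated counts can share reads, Clca3a1 stood at 19.9, 10.6 and 11.9 CPM in the controls against 20.8, 24.4 and 26.3 CPM in the knockouts (log2 0.76 ± 0.24, edgeR adjusted p = 0.211). Each knockout lay above each control, as for 6.99% of all genes tested. Clca4a varied widely, at 139.8, 16.1 and 127.3 CPM in the controls and 35.6, 293.5 and 237.1 CPM in the knockouts, with floxed control 2 and knockout 1 the lowest libraries of their groups (log2 1.0 ± 1.01, adjusted p = 0.734). Without floxed controls 1 and 3 the log2 change of Clca4a was 3.61, against the single control left. The more abundant Clca3b and Clca4b had log2 changes of 0.054 ± 0.31 and 0.022 ± 0.32, and Clca3a2 had 0.32 ± 0.22. Groups overlapped for each of these, so the family as a whole was not higher in the knockouts. Dmbt1, a scavenger receptor protein found in mucus, stood at 4256, 5257 and 2592 CPM in the controls and at 7667, 5240 and 5596 CPM in the knockouts (log2 0.61 ± 0.32, adjusted p = 0.429). Its groups overlapped, with floxed control 3, the highest library for Tff3 and Zg16, the lowest for Dmbt1. The low-level mucins Muc6 and Muc20 had 1.09 ± 0.49 and 0.87 ± 0.41 on the log2 scale at under 2 CPM in every library, neither passing (adjusted p = 0.357 and 0.373), and Muc20 overlaps Muc4 on the opposite strand.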
